A study of Mus musculus with 4 samples.

Results

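Antisense RNAs are transcribed from the strand opposite to another gene, often one that encodes a protein. The genes described here are expressed antisense RNA genes, chosen by their annotation and by their measured levels: at least 1 transcript of type antisense and none of type protein coding, a mean of at least 0.5 TPM (a level per transcript length, scaled to a fixed total in each library) and summed expected counts of at least 40 over 4 libraries. Of 55536 annotated genes, 3088 met the annotation criteria and 151 of those passed both thresholds. Zfas1, a small nucleolar RNA host gene, was left out by name, which left 150 antisense RNA genes, 132 of gene type antisense and 18 of gene type processed transcript. Because their levels chose them, these levels are given as a description, with no test.

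The 4 libraries were biological replicates of 1 condition, with no untreated group among the samples used here. Bone-marrow-derived macrophages, phagocytes grown in culture from marrow precursors of C57BL/6J mice, received lipid A at 100 ng/ml for 12 h, rested after a wash for another 12 h, and met lipid A at 100 ng/ml once more for 15 min before harvest. Lipid A, the anchor of bacterial lipopolysaccharide, is recognised by Toll-like receptor 4. Ribosomal RNA was depleted from total RNA of the cytosolic fraction, the labels record neither sex nor age, and they name 1 donor record for all 4 replicates, so p-values measure only how these samples vary, and that variation may be technical.

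A cell can hold an antisense RNA for several reasons known from other systems. Many start at the same promoter as the sense gene and run the other way, and the nuclear exosome, a complex of RNA-degrading subunits, removes most of these soon after they are made. Others, such as Airn at the imprinted Igf2r gene, act on the sense gene by being transcribed across it, and some leave the nucleus as spliced, polyadenylated RNAs.

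Total expected counts, the reads assigned to each gene by a statistical model, lay between 30660511 and 48223718 per library. All 15 macrophage markers passed 1 TPM (limma, adjusted p below 0.05), led by Lyz2 at 3430 TPM, and none of the 8 fibroblast and stroma markers did. Of 8 neutrophil, 8 T cell and 8 B cell markers, 2, 1 and 2 passed 1 TPM, among them Cd4 at 15.0 TPM, while Cd3e and Cd3d lay at or below 0.0625 TPM. In bulk RNA, fewer cells of a type and less RNA per cell cannot be told apart.

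Most of the antisense RNAs were scarce. The median of their mean levels was 1.34 TPM, with quartiles at 0.724 and 2.55 TPM, and 89 of the 150 reached 1 TPM and 8 reached 10 TPM. Together they held 0.0757% ± 0.00387 of the expected counts on annotated genes (SD, n = 4). They were above 0 TPM in every library for 147 genes, and at or above 0.5 TPM in every library for 107. Their median exon length was 1610.5 bases, 15 had a single exon and 53 had 2. A transcript of type antisense led in 148 of them, and the exceptions were BE692007, where a retained-intron transcript held 95.1% of the gene's TPM, and 4933439K11Rik, where a lincRNA transcript held 62.4%.

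At the TPM threshold, Zmiz1os1, A330040F15Rik and Gm12454 lay just inside with means of 0.5, 0.5025 and 0.5025 TPM, and Gm15987, Gm47766 and Gm48899 lay just outside at 0.495, 0.4925 and 0.485 TPM. At the count threshold, Gm13091, Gm15537 and Gm28809 lay just inside with 41, 41.75 and 49 summed counts, and 1810021B22Rik, Gm44710 and Rab26os lay just outside with 37, 35.02 and 22.

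The sense neighbour of an antisense RNA was the protein-coding gene on the other strand that overlapped it by most bases, or otherwise one within 5 kb. By this definition 147 antisense RNAs had 145 distinct neighbours. The antisense gene lay wholly inside its neighbour in 59 cases, overlapped it head to head in 40 and tail to tail in 30, contained it in 8, started nearby and ran away from it in 9, and ran towards it without overlap in 1. No neighbour was found for 4930430E12Rik, Gm43079 and D730005E14Rik. Median levels were 1.70 TPM for those inside a neighbour, 1.15 TPM head to head, 1.03 TPM tail to tail, 1.18 TPM for those containing one and 0.748 TPM for those running away from it. On their own strand, 14 antisense RNAs shared exon bases with a further gene, and their counts are uncertain to that extent. The share was largest in Gm43079 (3.44 TPM), where 100% of exon bases lay in exons of Acad9, a gene at 3.22 TPM. D730005E14Rik (1.10 TPM) shared 18.8% with Apobec3, which at 54.1 TPM was the most abundant of these further genes.

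In 19 of the 150, at least 90% of the exon bases lay directly over exons of the sense neighbour, so that the antisense RNA is nearly a reverse complement of part of the mRNA. Among the 20 antisense RNAs with the highest TPM, 9 were of this kind. An intron could be read from GENCODE M21 transcripts (mm10) only where it lay inside a single exon of the neighbour, as in 14 of the 19. In 4 others the introns could not be read, and 1 had no intron. Of the 14 introns read, 12 lay over a 3′ UTR and 2 over coding sequence. The sequences at both ends of 5 of these introns are shown because they are what sets such an RNA apart from its sense mRNA. Each run holds 20 bases of the antisense strand, 10 from the exon and 10 from the intron, with the first and last intron bases in capitals.
Gm26716 donor, intron chr4:130824587-130826091 (−), over the 3′ UTR of Sdc3: tcaggacaggGTtggttaat
Gm26716 acceptor: gaaagacaAGctgtgccaac
Gm15655 donor, intron chr8:115705479-115707194 (+), over coding sequence of Maf: gggaattcagGTtggcaatc
Gm15655 acceptor: ggcgcttcAGgctcgggaag
Gm20659 donor, intron chr11:101971536-101971648 (+), over the 3′ UTR of Dusp3: gcaacttaagGTggaaaggc
Gm20659 acceptor: ataacttaAGagtgctggag
Gm11175 donor, intron chr8:70699496-70699615 (−), over coding sequence of Jund: aactgctcagGTtggcgtag
Gm11175 acceptor: gcttgtgcAGgtcctccagc
Gm47248 donor, intron chr7:104261502-104261602 (−), over the 3′ UTR of Trim34a: agagtaaaagGTaagcatct
Gm47248 acceptor: catacacaAGgtaagcatca
Read on the antisense strand, 11 of the 14 introns began with GT and ended with AG, and 3 (Gm12744, Gm42846 and Gm42893) began with GC and ended with AG. None began with CT and ended with AC, which is how a GT to AG intron of the sense strand reads on the antisense strand. The introns were 60 to 1716 bases long. The bases around the 2 ends were also repeats of each other in part: the run shared by both junctions was 0 to 12 bases, with a median of 4, and was at least 4 bases in 9 of 14. Gm47248, named here after its sequence was seen, had the longest, 12 bases. Introns of the other antisense RNAs were not read here, so there is no background for these repeats.

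Each library was quantified a second time by the submitters, directly from the reads, where the first quantification used reads aligned to transcripts. Values for the antisense RNAs are given for both side by side. Protein-coding genes held 8.82% to 14.0% of TPM in the second quantification and 25.3% to 36.6% in the first, so differences are given on TPM rescaled to protein-coding genes in each library, as log2(rescaled TPM + 0.1), second minus first.

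Gm26716 (chr4:130824394-130826313, minus strand) lies inside Sdc3, which encodes the cell-surface proteoglycan syndecan-3, and all of its exon bases lie over Sdc3 exons. It had 0.203, 0, 0 and 0.0624 TPM in the second quantification (replicates 1 to 4), against 123, 106.5, 144 and 151 TPM in the first. In counts, it had 4.74, 0, 0 and 2.99 estimated counts, against 1162, 1471, 2159 and 1869 expected counts. Its rank among the antisense RNAs was 140 in the second quantification and 1 in the first.

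Gm44709 lies inside Supt5, whose product is a subunit of a transcription elongation factor. It had a mean of 0.0502 TPM in the second quantification and 12.4 TPM in the first. Gm20659, inside the phosphatase gene Dusp3, had means of 0.0210 and 7.96 TPM in the same order, and Gm11175, inside the AP-1 gene Jund, had means of 0.0812 and 7.25 TPM. Gm17122, inside the coronin gene Coro1c, was listed at 0 in every library of the second quantification, against 6.99, 9.57, 15.57 and 3.33 TPM in the first. Gm44170, inside Sec61a1, a gene of the protein channel of the endoplasmic reticulum, was listed at 0 there too, against 5.26, 3.64, 4.10 and 3.42 TPM.

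Gm15655 and Gm37401 differed by less than 2-fold on the rescaled scale, while their deposited TPM was lower in every library of the second quantification. Gm15655 lies inside Maf, the gene of the macrophage transcription factor c-Maf, and had 26.4, 24.4, 11.1 and 14.0 TPM in the second quantification, against 38.8, 48.7, 37.1 and 34.2 TPM in the first. On the rescaled log2 scale it differed by 0.32. Gm37401, which overlaps the small GTPase gene Rhoa tail to tail, had 24.96, 11.4, 8.12 and 8.80 TPM in the second quantification, against 73.9, 45.4, 62.2 and 57.7 TPM in the first, a rescaled difference of -0.83.

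Across the 19 antisense RNAs with at least 90% of exon bases over sense exons, the median rescaled difference was -4.88, with a range of -10.38 to 0.32. Of these, 16 were at least 2-fold lower in the second quantification, 14 at least 4-fold lower, and 6 were listed at 0 in every library. The 36 with no exon overlap had a median difference of 0.46, the 84 with under 50% had 0.24 and the 11 with 50% to under 90% had 0.14. In those 131, a fall of at least 2-fold occurred once, in D330041H03Rik at -2.27. The overlap classes were drawn after the values had been seen, and their medians carry no test. Without replicate 2 the median of the 19 was -4.46, the smallest of the 4 values with a replicate left out.

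**Figure D1:**
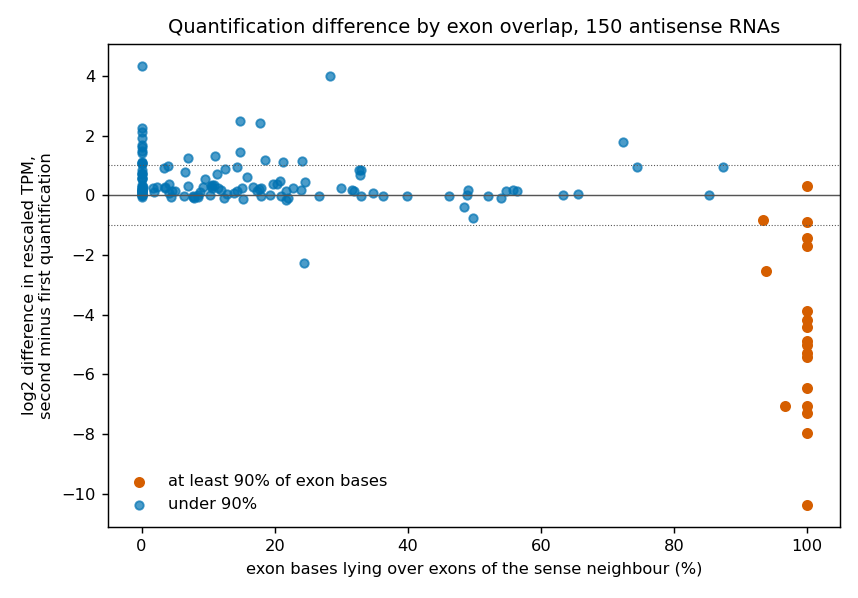
Log2 difference in rescaled TPM (second minus first quantification, mean of 4 libraries) on the vertical axis against the percentage of an antisense RNA's exon bases that lie over exons of the sense neighbour, with 1 point for each of 150 antisense RNAs and dotted lines at a 2-fold difference. The 19 points at 90% or more run from 0.32 down to -10.38, while 1 of the other 131 lies below -1.

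In the other direction, the largest differences were those of Gm13091 inside Rere at 4.33, Gm15726 inside Mid1 at 4.00 and Adap2os inside Adap2 at 2.47, followed by Gm28913 at 2.41 and Gm26740 at 2.26. Gm15726 had a mean of 6.52 TPM in the second quantification and 1.08 TPM in the first. Their exons overlapped those of the neighbour by 0% to 28.3%. Between the 2 top 20 rankings, 12 antisense RNAs were shared, and the second held 2 of the 19 with at least 90% overlap.

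The sense neighbours themselves were tested between the quantifications, with limma treat against a log2 difference of 1. On rescaled TPM, 1 of 126 neighbours was higher in the second quantification (Cfap45) and 1 lower (Ftl1-ps1), beside 0.697% and 0.266% of protein-coding genes tested. As deposited, 0 of 114 were higher and 5 lower (C130026I21Rik, Tep1, Ftl1-ps1, Hist2h2aa2 and Dop1b), beside 0.148% and 2.30% of protein-coding genes, whose median difference was itself -1.41. The count of 5 was 9 without replicate 2 and 3 without replicate 3 or without replicate 4. C130026I21Rik, Ftl1-ps1 and Hist2h2aa2 have near-identical copies elsewhere in the genome, so their levels are uncertain. Sdc3, the neighbour of Gm26716, had a rescaled difference of -0.06 (adjusted p = 1 by limma treat).

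Whether counting used the strand of the reads is not given in the sources used here, so reads from an antisense RNA and from the sense exons under it cannot be told apart, and the part of sense reads in these levels was not tested. Of the 3088 candidates, 11 had at least 50% of their exon bases over exons of an mRNA of at least 100 TPM. In the second quantification 9 of the 11 lay below 1% of that mRNA's TPM and none had 0 counts in all libraries, against 8 and 3 in the first. The 3 with 0 counts in the first had 3.90, 54.8 and 19.4 estimated counts in the second (Gm12841, Gm20663 and A930015D03Rik). Above 1% in the first quantification were Gm26716 at 52.2% of Sdc3, Gm37401 at 51.8% of Rhoa and Gm37787 at 3.15% of Slamf7.

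Among the abundant antisense RNAs with under 90% of their exon bases over sense exons, Tug1 (chr11:3639785-3649673, minus strand), a long noncoding RNA that shares its start region with Morc2a, had the most counts, 18832 over the 4 libraries, and 4.96% of its exon bases lie over Morc2a exons. It had 17.9, 16.2, 19.5 and 24.4 TPM in replicates 1 to 4, against 4.98, 4.55, 5.41 and 5.59 TPM for Morc2a, the gene of a chromatin-silencing ATPase. Every library of Tug1 lay above every library of Morc2a. Brip1os (chr11:86201370-86304443), which contains the Integrator subunit gene Ints2, had 10.8, 8, 11.9 and 12.9 TPM, against 3.15, 2.26, 3.04 and 3.45 TPM for Ints2. By the overlap rule its neighbour was Ints2 and not Brip1, the gene in its name. 2310009A05Rik had 11.1, 8.39, 9.77 and 9.21 TPM, against 4.19, 3.92, 4.61 and 5.36 TPM for Pigb, an enzyme of glycolipid anchor synthesis. 4930455G09Rik had 6.93, 8.07, 6.72 and 8.4 TPM, against 1.59, 1.34, 1.21 and 2.21 TPM for Fhad1, whose own position relative to 1 TPM turned round in the second quantification as deposited.

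In the second quantification Tug1, Zeb2os and Brip1os had means of 7.72, 9.90 and 3.69 TPM. The other antisense RNAs of the top 20 with a neighbour lay below it in mean level. 4930430E12Rik, which has none, had 25.3, 22.8, 17.8 and 41.5 TPM. BE692007 had a mean of 9.40 ± 2.08 TPM and its neighbour Ms4a6c, of a family of membrane-spanning proteins, 358 ± 91.8 TPM (SD, n = 4 each). Rab10os had 7.2 ± 1.41 TPM and Rab10, a small GTPase of vesicle traffic, 70.0 ± 16.0 TPM. Gm37787 had 5.99 ± 1.22 TPM and the SLAM family receptor Slamf7 190 ± 63.1 TPM. Gm13012 had 5.43 ± 1.71 TPM and the endothelin-converting enzyme Ece1 9.88 ± 3.04 TPM. Gm17139 and Gm20463, both over sense exons, had 9.04 ± 2.81 and 8.36 ± 1.71 TPM in the first quantification, beside Arel1 at 24.95 ± 7.83 and Rnf5 at 12.1 ± 1.62 TPM, which both encode ubiquitin ligases.

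**Figure D2:**
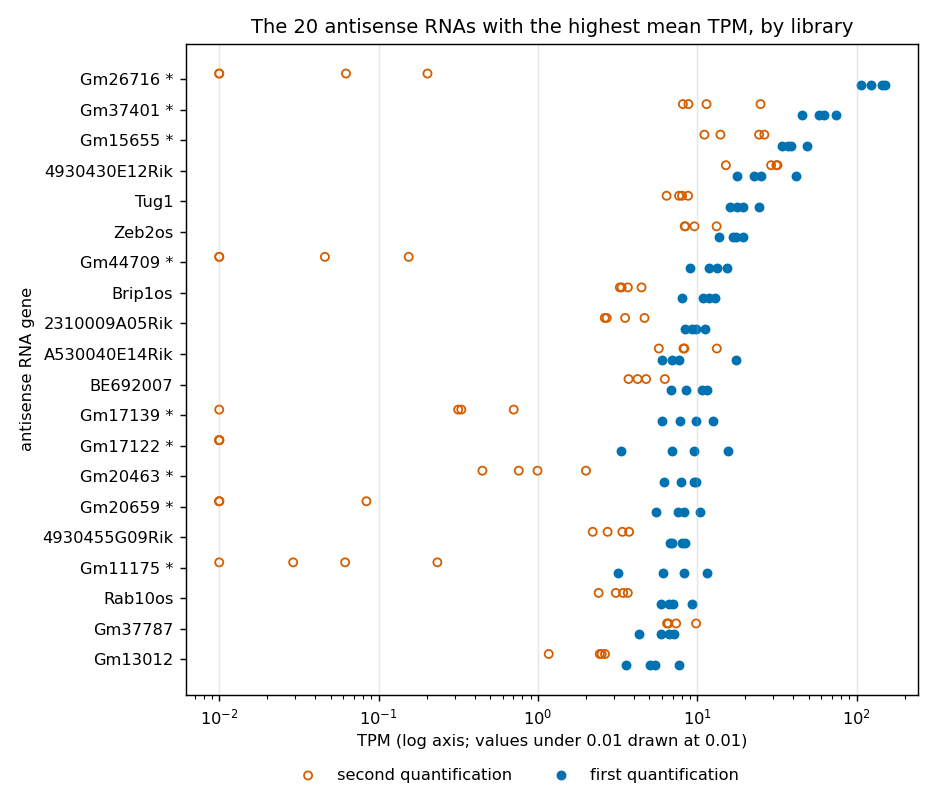
TPM on a log axis for the 20 antisense RNAs with the highest mean TPM in the first quantification, with 4 open circles (second quantification) and 4 filled circles (first quantification) per gene, 1 for each library, and an asterisk where at least 90% of exon bases lie over exons of the sense neighbour. Gm26716 reaches at most 0.203 TPM in the second quantification and leads the first, while Tug1, Zeb2os and Brip1os keep all 4 second values above 3 TPM.

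Antisense RNAs were usually less abundant than the gene they oppose. The median log2 ratio of antisense to sense TPM, each with 0.1 added, was -2.20, and the medians of the 4 libraries lay between -2.31 and -2.23. Of 147 antisense RNAs, 105 lay below their neighbour in every library and 35 lay above it in every library. Among the 35, the neighbour was above 1 TPM in 5 and not above it in 30. The selection required a mean of at least 0.5 TPM of the antisense RNA alone, so any neighbour below that mean was exceeded by construction. In 54 the antisense level was under 10% of the sense level. Of the neighbours, 5 were listed at 0 in every library, and the ratios of their antisense RNAs all lie above the median, so the median does not depend on their size. With 1 added in place of 0.1, the median was -1.57.

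The selection did not use the neighbours' levels, although reads over shared exons could have entered both. The neighbours were tested against 1 TPM with limma and Benjamini-Hochberg adjustment over all 16262 genes tested. Of 136 neighbours tested, 111 (81.6%) lay above 1 TPM and 19 (14.0%) below it, beside 71.2% and 22.4% of the 12636 protein-coding genes tested. Over every annotated gene, 76.6% of 145 neighbours and 40.9% of 22028 protein-coding genes passed 1 TPM. The median level was 10.3 TPM for the tested neighbours and 4.85 TPM for the tested protein-coding genes. Without the neighbours of the antisense RNAs with at least 90% overlap, 93 of 118 (78.8%) lay above 1 TPM and 19 (16.1%) below it. The count below 1 TPM was 12 on rescaled TPM and 30 in the second quantification as deposited.

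Where both genes start head to head within 1 kb, the 30 antisense RNAs had a median of 0.863 TPM and their neighbours a median of 9.13 TPM. Of these neighbours 28 were above 1 TPM, 1 (Usp54) below it and 1 (Sox10) too low to test. Beside this, 71.2% of the protein-coding genes tested and 40.9% of those annotated were above 1 TPM. In 117 other antisense RNAs with a neighbour, that neighbour was above 1 TPM in 84, with neighbours not tested counted among the 117. The groups were not tested against each other.

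**Figure D3:**
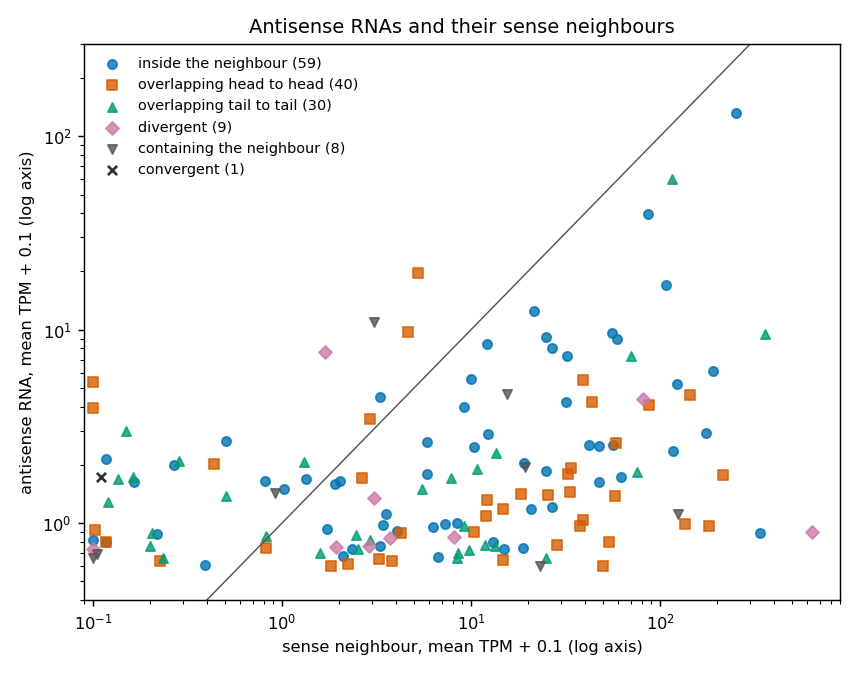
Mean TPM + 0.1 of each antisense RNA on the vertical axis against that of its sense neighbour on the horizontal axis, both log axes, for 147 antisense RNAs, with the marker showing the arrangement, its number of genes in brackets, and a line at equal levels. Most points lie below the line, and those at the left edge are antisense RNAs whose neighbour is near 0 TPM.

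The 5 smallest ratios were those of antisense RNAs opposite abundant mRNAs. A small ratio needs an abundant neighbour here, because every antisense RNA had a mean of at least 0.5 TPM. Gm4285 starts 129 bases from Tpt1, the gene of a translationally controlled tumour protein, and had 0.58, 1.12, 0.64 and 0.86 TPM, against 653, 575, 546 and 768 TPM for Tpt1. Gm19412 had a mean of 0.793 TPM, against 338 TPM for Tapbp, the gene of the peptide-loading protein tapasin. Gm11131 had 0.863 TPM, against 182 TPM for H2-Q4, an MHC class I gene whose near-identical relatives make its count uncertain. 4930539J05Rik had 0.893 TPM, against 136 TPM for the ubiquitin-conjugating enzyme Ube2d3, and 2900089D17Rik had 1.67 TPM, against 215 TPM for Bri3.

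At the other end were antisense RNAs whose neighbour was at or near 0 TPM in the first quantification. Sp3os had 5.56, 4.5, 5.31 and 5.57 TPM, and its neighbour Gm11084 was listed at 0 in all 4 libraries. The overlap rule paired Sp3os with Gm11084 and not with Sp3, the gene in its name, so its ratio does not describe Sp3. In the second quantification Sp3os had 2.54, 2.06, 1.52 and 1.65 TPM, against 0, 1.20, 0 and 0.542 TPM for Gm11084. 9530082P21Rik had 4.14, 2.52, 3.28 and 5.50 TPM, and Kremen2, a receptor gene of the Wnt pathway, was also listed at 0, with at most 0.0112 TPM in a library of the second quantification. The antisense gene that bears the symbol Trmt61b (identifier ENSMUSG00000085492.7) had a mean of 2.90 TPM, against 0.050 TPM for Spdya, a cell cycle gene. Plxna4os1 had a mean of 2.04 TPM, against 0.0175 TPM for the plexin gene Plxna4 (adjusted p = 9.48e-08 below 1 TPM by limma). Bach2os, inside the gene of the lymphoid repressor Bach2, had 1.16, 2.54, 0.84 and 1.58 TPM, against 0.11, 0.06, 0.06 and 0.03 TPM for Bach2 (adjusted p = 2.43e-07 below 1 TPM by limma).

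F630028O10Rik (chrX:96239926-96243636, plus strand) had the fifth largest ratio. It ends toward Vsig4, a complement receptor gene of tissue macrophages, which had 0, 0.04, 0 and 0 TPM. On its own strand an exon of F630028O10Rik contains Mir223, the gene of a myeloid microRNA. The 2 mature sequences from RefSeq (GRCm38.p6, chrX:96242842-96242864 and chrX:96242884-96242905) are shown with the seed, bases 2 to 8, in capitals.
mmu-miR-223-5p: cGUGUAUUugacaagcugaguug
mmu-miR-223-3p: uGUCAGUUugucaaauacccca
The host RNA had 0.89, 2.79, 1.49 and 1.36 TPM, with replicate 2 the highest and replicate 1 the lowest, and the Mir223 gene itself was listed at 0 TPM. Because Mir223 lies within the host exon, reads of the 2 cannot be told apart, and this 0 is no measure of the mature microRNAs.

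Among the neighbours were 6 genes of innate immune lists, and all 6 were above 1 TPM in the limma test, with adjusted p of at most 3.95e-10. Of all genes of those lists 222 of 239 tested were above 1 TPM, and of protein-coding genes 71.2%, so the count of 6 says nothing particular about antisense RNAs. Pdcd1lg2, the gene of the related checkpoint ligand PD-L2, was in none of the lists and is named after its value was seen. Its antisense RNA A930007I19Rik had 0.55, 0.45, 0.45 and 1.18 TPM, against 0.10, 0.07, 0.12 and 0.11 TPM for Pdcd1lg2 (adjusted p = 3.10e-07 below 1 TPM by limma). Zeb2 encodes a zinc finger factor of macrophage identity, and Zeb2os (chr2:45110707-45114087, plus strand) lies inside it, with 32.8% of its exon bases over Zeb2 exons. Zeb2os had 19.3, 13.7, 16.8 and 17.4 TPM, against 96.1, 97.2, 94.9 and 140 TPM for Zeb2. Every antisense value lay below every value of Zeb2.

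Oasl1 encodes an interferon-induced relative of the 2′-5′ oligoadenylate synthetases. Gm13822 starts 37 bases inside it and runs the other way, with 2.77, 2.17, 5.2 and 7.74 TPM, against 125, 97.5, 115 and 238 TPM for Oasl1. In these values replicate 4 was the highest and replicate 2 the lowest for both, with 17, 20, 51 and 66 expected counts for Gm13822. In the second quantification Gm13822 had 5.37, 2.83, 2.25 and 4.68 TPM, against 49.5, 37.3, 31.4 and 65.6 TPM for Oasl1. There the highest was replicate 1 for Gm13822 and replicate 4 for Oasl1. Gm16094 starts 469 bases from Sp110, a nuclear body gene, and had 2.89, 3.21, 3.15 and 7.89 TPM, against 73.9, 64.9, 74.7 and 110 TPM for Sp110. Here too replicate 4 was the highest for both in the first quantification, whose deposited TPM was highest in replicate 4 for 48.4% of all genes tested.

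The promoter window of Oasl1 is shown because it holds the starts of both genes. It was taken from RefSeq (GRCm38.p6, chr5:114922990-114923289, plus strand, 250 bases before and 50 after the RefSeq start), with positions counted from 1 at its 5′ end. Oasl1 starts at position 251 and Gm13822 at position 288 on the other strand.
Oasl1 and Gm13822: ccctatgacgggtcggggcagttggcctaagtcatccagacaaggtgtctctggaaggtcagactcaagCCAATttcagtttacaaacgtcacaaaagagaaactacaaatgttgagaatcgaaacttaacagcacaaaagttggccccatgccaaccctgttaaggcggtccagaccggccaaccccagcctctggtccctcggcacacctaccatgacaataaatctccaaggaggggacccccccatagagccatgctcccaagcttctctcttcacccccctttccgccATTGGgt
Capitals mark matches, on either strand, to 5 motifs. These are the TATA box (TATAAA), the GC box (GGGCGG), the ETS site (CCGGAAG), the CCAAT box (CCAAT) and an interferon-stimulated response element core, which is GAAA repeated with any 2 bases between. The Oasl1 window held CCAAT once on each strand, and the other 4 were not in it. In 32851 RefSeq promoter windows, CCAAT was found in 37.4%, GGGCGG in 35.7%, TATAAA in 13.6%, CCGGAAG in 8.86% and the interferon element in 3.44%.

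For comparison, Cox10, the gene of an enzyme of haem A synthesis, and 2810001G20Rik start 16 bases apart, the closest pair. The pair was chosen after its values were seen. 2810001G20Rik had a mean of 0.7425 TPM, against 3.63 TPM for Cox10. Their shared window (chr11:64079423-64079722, minus strand) has Cox10 starting at position 255 and 2810001G20Rik at position 239.
Cox10 and 2810001G20Rik: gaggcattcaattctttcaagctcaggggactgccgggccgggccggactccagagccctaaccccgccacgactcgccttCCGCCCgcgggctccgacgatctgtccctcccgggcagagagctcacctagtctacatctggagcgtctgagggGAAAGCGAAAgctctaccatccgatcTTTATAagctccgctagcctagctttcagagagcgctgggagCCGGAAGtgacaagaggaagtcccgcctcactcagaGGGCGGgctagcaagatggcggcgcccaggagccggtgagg
It held the GC box once on each strand, and the TATA box, the ETS site and the interferon element once each. Of the antisense RNAs, 71 matched a RefSeq promoter by symbol. GGGCGG was in 45.1% of these and CCAAT in 45.1%, and in 119 neighbour windows GGGCGG was in 57.1% and CCAAT in 42.9%. A match is a description of letters and not a binding site.

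AC119228.1 lies inside Cd274, the gene of the checkpoint ligand PD-L1, and had 0.28, 5.80, 1.98 and 3.27 TPM, against 126, 138, 147 and 289 TPM for Cd274. Gm28913 lies inside the kinase gene Ikbke and had 0.29, 3.47, 0.54 and 2.21 TPM, against 56.2, 59.4, 50.7 and 80.5 TPM for Ikbke. In both, replicate 2 was the highest and replicate 1 the lowest for the antisense RNA, while the neighbour was highest in replicate 4. Gm28913 rested on 2, 36, 6 and 21 expected counts and AC119228.1 on 60.5, 1665, 588 and 742.

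**Figure D4:**
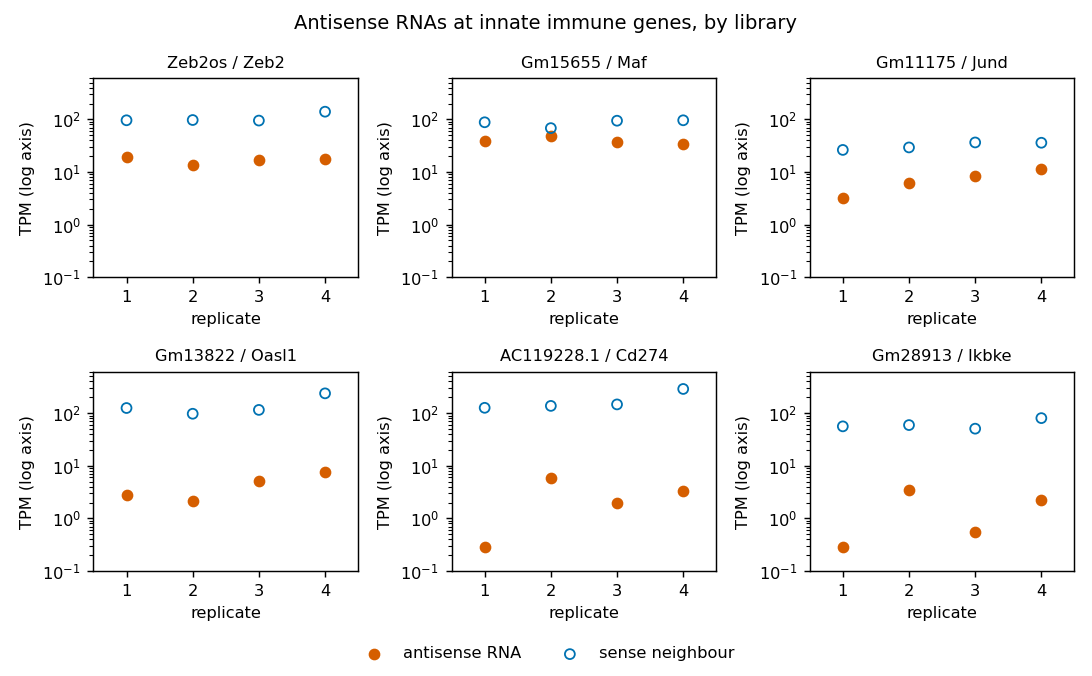
TPM on a log axis by replicate for 6 antisense RNAs (filled circles) and their innate immune sense neighbours (open circles). Zeb2os keeps its level across replicates, while AC119228.1 and Gm28913 are lowest in replicate 1 and highest in replicate 2.

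Airn, the imprinted antisense RNA that keeps the paternal Igf2r copy silent in many mouse tissues, had 1.02, 0.96, 0.85 and 1.15 TPM, with 35, 57, 55 and 47 expected counts. Igf2r had 10.2, 9.15, 16.9 and 11.4 TPM. Of 16 antisense RNAs listed by name, Airn, Rab10os and Bach2os met the selection.

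By their medians, the antisense RNAs varied more between libraries than all genes tested. Their median biological coefficient of variation (edgeR) was 0.355, against 0.206 for all genes tested and 0.158 for the 10948 genes with at least 0.5 TPM and 40 counts. The median coefficient of variation of TPM differed less, at 26.8%, against 19.9% for 13287 genes with at least 40 counts. With a median of 1.34 TPM the antisense RNAs were scarce, and none of these sets was matched to them on level. The part of low counts in the difference was not tested. Peak1os, with 1.99, 0.98, 1.55 and 4.99 TPM, and AC119228.1 had the largest coefficients of variation of TPM among those with a mean count of at least 50, at 75.3% and 82.1%. A530040E14Rik, Gm17122 and Gm16094 followed at 56.8%, 58.1% and 56.2%. At the low end, D330041H03Rik had 1.68, 1.84, 1.89 and 1.80 TPM, a coefficient of 4.97%, followed by 9330159M07Rik at 7.18%, Gm15417 at 8.54%, Sp3os at 9.64% and Gm48529 at 10.2%.

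By CPM (counts relative to library size, TMM-scaled), 33, 55, 16 and 46 of the 150 were highest in replicates 1 to 4. Replicate 2 was the highest for 36.7% of them, beside 28.9% of all genes tested, and replicate 4 for 30.7%, beside 19.7%. In 31 (20.7%) replicate 2 was the highest and replicate 1 the lowest, close to the 18.3% of all genes tested, so that the share is not a result about antisense RNAs. The sizes in some were large: 44.2 CPM in replicate 2 against 1.96 CPM in replicate 1 for AC119228.1, and 14.6 against 4.09 CPM for F630028O10Rik. By deposited TPM, 23 (15.3%) were highest in replicate 2, beside 17.8% of all genes tested, and 86 (57.3%) in replicate 4, beside 48.4%. With DESeq2 size factors 37.3% were highest in replicate 2, beside 30.6% of all genes, and 30.7% in replicate 4, beside 20.0%. In the second quantification 44% were highest in replicate 2, beside 31.3%, and 20% in replicate 4, beside 17.5%. The excess over all genes in replicate 2 therefore turned round only by deposited TPM. That in replicate 4 kept its direction but was small in the second quantification.

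Several RNAs known to stay in the nucleus also differed between these cytosolic libraries. A list of 12 nuclear-retained long noncoding RNAs held 0.0462%, 1.07%, 0.284% and 0.300% of counts in replicates 1 to 4. Most of it came from Malat1 and Gm26917, with 193714 and 160912 counts in replicate 2. Malat1 had 55.7, 719, 416 and 295 TPM, Neat1 9.62, 41.2, 31.7 and 21.1 TPM, and Gm26917 15.4, 843, 70.0 and 304 TPM, each highest in replicate 2 and lowest in replicate 1. Xist and Kcnq1ot1 had the same order. Ftx (0.49, 0.58, 0.49 and 0.60 TPM) and Airn, itself one of the antisense RNAs (1.02, 0.96, 0.85 and 1.15 TPM), did not. In CPM both were highest in replicate 2. Tsix, Meg3, Mirg, Rian and Snhg11 were at or near 0. The part of nuclear RNA in the levels of the antisense RNAs was not tested.

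**Figure D5:**
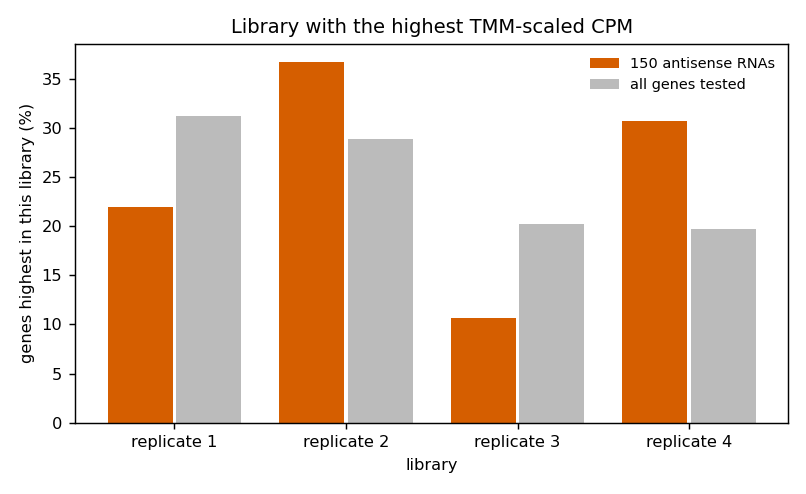
Percentage of genes whose highest TMM-scaled CPM lies in each of the 4 libraries, for the 150 antisense RNAs (left bars) and all 16262 genes tested (right bars). On this scale the antisense RNAs exceed all genes in replicates 2 and 4 and lie below them in replicates 1 and 3. By deposited TPM they lie below all genes in replicate 2.

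The machinery that makes, degrades and senses antisense and double-stranded RNA was expressed. Of 6 pathway lists chosen with earlier results known, 92 of 102 measured genes passed 1 TPM by limma. Among all genes tested 58.2% passed, and among protein-coding genes tested 71.2%. The 102 include 12 nuclear-retained RNAs, which are not part of this machinery, and some genes too low to test. In the nuclear exosome list 22 of 23 passed, with a median of 6.87 TPM, led by Rbm7 at 31.0, Pabpn1 at 20.8 and Srrt at 13.6 TPM, and Exosc6 was listed at 0. All 20 termination and Integrator genes passed, led by the exonuclease gene Xrn2 at 24.7 TPM, then Wdr82 at 13.9 and Cpsf3 at 12.7 TPM. In the list of double-stranded RNA enzymes and sensors 19 of 20 passed, led by the sensors Ddx58 at 105, Dhx58 at 51.2 and Ifih1 at 49.9 TPM, and the editing enzyme gene Adarb1 lay below 1 TPM at 0.0250 TPM. All 17 genes of nonsense-mediated and cytosolic decay and all 10 of RNA export passed, among them Dcp2 at 16.6 and Smg1 at 13.4 TPM in the decay list and Ddx39b at 30.2, Xpo1 at 27.7 and Ranbp2 at 26.9 TPM in the export list. Among the nuclear-retained RNAs 4 of 12 passed, and Ftx at 0.540 and Kcnq1ot1 at 0.110 TPM lay below.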

How the data were processed

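The deposited gene tables give expected counts, TPM and posterior mean TPM for each gene and library, and 2 transcript tables give expected counts with TPM and estimated counts with TPM, per the file headers. Per the deposited notes of each library, expected counts were made from reads aligned to the transcriptome (the first quantification) and estimated counts from the unaligned reads (the second), with mm10 and GENCODE M21. The sources used here name no aligner, quantification tool or version, and do not say whether strand was used. Gene positions came from GENCODE M21.

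The second transcript values were summed per gene. Genes with summed expected counts of at least 10 were tested with limma 3.58.1 (intercept only, variance trend) on log2(TPM + 0.1), one-sided against 1 TPM in each direction. Quantifications were compared with limma treat for genes of at least 1 TPM in either. Expected counts were rounded for edgeR 4.0.16 (TMM, estimateDisp), with DESeq2 1.42.0 as an alternative. A gene was called at p below 0.05 after Benjamini-Hochberg adjustment. Fold differences on the log2(TPM + 0.1) scale understate those of low genes. The fits were tested on simulated data.

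The antisense RNAs, the gene lists and the tests were chosen with earlier results of these data known. The antisense RNAs named are 3 listed by name, the 20 with the highest TPM, those with an innate immune neighbour, the 5 at each end of the ratio, of the spread and of the quantification difference, and those at the thresholds. Of each pathway list the 3 highest genes and those below 1 TPM are named, except for an item that is not reported here. Libraries that were compared in pairs differed by far more than sampling noise. The labels name no molecular identifiers, and reads are then not independent, so limits from counts cover counting error only. With 30660511 to 48223718 counts per library, a count of 0 allows up to 3 counts, or 0.0623 to 0.0982 CPM of counts on annotated genes.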

Additional observations from a re-analysis of the deposited data

Results flagged for a closer look

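In 3 antisense RNAs the library highest in TPM stood apart from the other 3 by more than Dixon's 95% limit for 4 values, among 54 sets of 4 values examined. Chance gives about 1 in 20 for independent sets, but these sets share the same 4 libraries, so no conclusion is drawn from the number flagged. The antisense RNAs were chosen on their levels, and A530040E14Rik and Gm16094 had also been named for their spread, so the gaps are a description and not a test. All 3 were replicate 4. A530040E14Rik had 17.58 TPM there, against 5.98 to 7.64 TPM in the other libraries, and its neighbour C130026I21Rik had 96.5 TPM there, against 40.2 to 43.1 TPM. Gm16094 had 7.89 TPM, against 2.89 to 3.21 TPM, and Gm15726 had 1.79 TPM, against 0.81 to 0.87 TPM. Protein-coding genes held 36.6% of TPM in replicate 4, against 25.3% to 31.7% in the others, and the part of this in the 3 values was not tested.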

How the results depend on the processing

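No paired analysis was possible because the libraries form 1 group. Neighbours above 1 TPM numbered 89 to 118 over all alternatives, around 111. Those below 1 TPM (19) were 12 on rescaled TPM, 30 in the second quantification, 11 with summed counts of at least 40, and 14 to 18 with a replicate left out; without the neighbours of antisense RNAs lying over sense exons, an alternative added after seeing the data, 93 were above and 19 below. List genes below 1 TPM (3) were 9 with no filter on counts. Neighbours lower in the second quantification (5) were 25 with a pseudocount of 1, 1 on rescaled TPM and 3 to 9 with a replicate left out, and the 0 higher became 1 on rescaled TPM; the cause was not tested. The median log2 ratio (-2.20) was -1.57 with a pseudocount of 1, -2.30 with 0.01, -2.27 on rescaled TPM, -2.25 where gene bodies overlap, and -2.26 to -2.15 with a replicate left out. The median coefficient of variation (0.355) was 0.313 to 0.414 with a replicate left out, and its ratio to all genes (1.73) 1.595 to 2.01, or 2.07 with counts of at least 40. Antisense RNAs highest in replicate 2 (55) were 23 by deposited TPM, and those highest in replicate 4 (46) were 86 by deposited TPM and 30 in the second quantification. Candidates below 1% of the mRNA they lie over (8) were 3 at 90% overlap, where 5 candidates remained. Relative to 1 TPM, Fhad1, Car9 and Cluap1 changed side in the second quantification as deposited (-0.64, -0.59 and -0.17) and Raet1e on rescaled TPM (1.07).

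Low counts limit antisense RNAs near the thresholds most, and 1 condition with 4 libraries of 1 donor record allows no comparison of treatments.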
